A study of Homo sapiens with 18 samples.

Results

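Proteasome subunit and regulator genes were followed across 6 groups of Hep3B libraries. The members were chosen by gene symbol (PSMA, PSMB, PSMC, PSMD, PSME, PSMF or PSMG followed by digits only) and selected on their counts, with 10 or more counts required in each of the 18 libraries. Of 48 such symbols among 36684 gene symbols in the table, 44 met the rule and all 44 were among the 14557 genes tested. They comprised 15 core subunits (7 PSMA and 8 PSMB genes) and 20 cap genes (6 PSMC ATPases and 14 PSMD non-ATPases). The cap class follows the symbols and so includes the base chaperones PSMD5, PSMD9 and PSMD10. The rest were 5 activators and inhibitors (PSME1 to PSME4 and PSMF1) and 4 assembly factors (PSMG1 to PSMG4). The 4 symbols left out were the immunoproteasome subunits PSMB8 (0 to 1 counts per library) and PSMB9 (0 to 2 counts), the thymus subunit PSMB11 (0 to 1 counts) and the testis subunit PSMA8 (0 counts in every library). A count of 0 allows up to 3 counts, so no fold was computed for them. Just inside the limit lay PSMB10, with 11 counts in its lowest library, and PSMA2, with 16.

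The proteasome degrades proteins that carry ubiquitin chains. Its core is a barrel of stacked rings: PSMA genes encode the α rings that gate the entry, and PSMB genes the β rings, in which PSMB6, PSMB7 and PSMB5 carry the β1, β2 and β5 proteolytic sites. The cap binds the ubiquitinated protein, removes the ubiquitin and unfolds the chain with a ring of PSMC ATPases. PSME1 and PSME2 form the PA28αβ activator, PSME3 forms PA28γ of the nucleus, PSME4 is PA200 and PSMF1 (PI31) is known as a regulator that can inhibit the core. PSMG1 to PSMG4 are chaperones that help the core assemble. When proteasome activity is short, the transcription factor NFE2L1 is known to raise the transcription of many subunit genes.

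The cells were Hep3B, an established line from a human liver cancer. Apart from the control group (Con), the other 5 groups all received free fatty acids (FFA), a cell culture model of steatosis. One of them received nothing further (Model), 3 received the brown algal carotenoid fucoxanthin at 0.5, 1 or 2 μM (FUCO-0.5, FUCO-1 and FUCO-2), and one received Resmetirom (RES), an agonist of thyroid hormone receptor β. Each group had 3 libraries, described in the study's methods as biological replicates of this one line. Separate cultures are not stated, so p-values measure only the spread between these libraries, which may be technical. The sources used here do not give the FFA concentration, the time of treatment or the RES dose for these libraries.

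The libraries held 16916688 to 23083498 counts each, and levels are given as CPM, the counts divided by the TMM-scaled library size and brought to a common total. All 10 hepatocyte markers were detected at 1 CPM or more in every library, and of 12 markers of immune, endothelial, stromal and biliary cells 9 had a mean under 1 CPM, among them 3 at 0 in every library. Summed hepatocyte marker levels ranged from 56632 to 57427 CPM in Model and from 20654 to 20984 CPM in RES. The largest part was ALB, with means of 33912 CPM in Model and 7528 CPM in RES. Of the 10 markers 8 fell and 1 rose in RES against Model, where 25.1% and 24.4% of the tested genes did. The summed level of the other markers ranged from 243 to 257 CPM in Model and from 108 to 131 CPM in RES. Most of this second sum was KRT19, with means of 241.6 CPM in Model and 101.5 CPM in RES. Of the 4 other markers tested, 2 rose and 2 fell in RES against Model (edgeR quasi-likelihood test, adjusted p under 0.05). The mean of CD14 went from 3.58 to 11.7 CPM and that of PECAM1 from 1.26 to 0.66 CPM. The part of these marker levels in the differences below was not tested. Con replicate 1 stood apart in the members' own levels, with a summed level of 5151 CPM against 4565 and 4613 CPM in the other Con libraries.

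Per kilobase of the reference transcript, the most abundant member over all 18 libraries was PSMB4, a β ring subunit, at 366 CPM per kb. The catalytic subunits PSMB5, PSMB7 and PSMB6 had 189.9, 169 and 159 CPM per kb. The catalytic immunoproteasome subunit PSMB10 lay at 0.904 CPM per kb. In 5 members more than 50% of the coding bases lie in another protein-coding gene on the same strand in the GENCODE v44 annotation, and 4 of these 5 (PSMB10, PSMA2, PSMD9 and PSMA6) were the members with the lowest levels. PSMA2 shared 97.8% of its coding bases, PSMA1 88.6%, PSMA6 70.4%, PSMD9 58.7% and PSMB10 58.3%. Mean levels of these 5 ran from 0.883 to 24.9 CPM, against 12.5 to 343 CPM (median 131) in the other 39. GENCODE v44 is not the annotation release that the study's methods name. The 5 overlapping genes have an identifier but no symbol in v44, and the count table, which lists symbols, holds none of these identifiers. Whether they were in the annotation used for counting, and how reads in shared exons were assigned, is not given in the sources used here, and the part of this in the low levels was not tested. PSMC1, which overlaps NRDE2 on the opposite strand over 76.2% of its exon bases, had 11.02 CPM per kb, the lowest of the other 39. Without the use of strand in counting, reads of such a pair cannot be told apart.

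**Figure D1:**
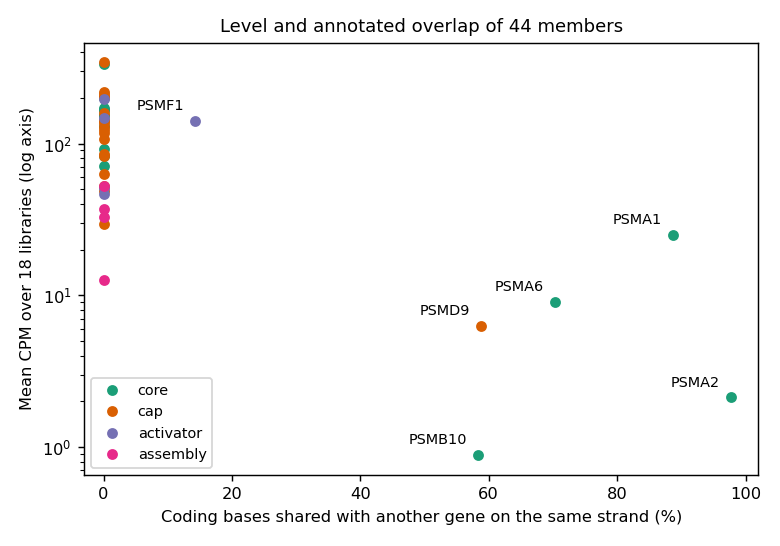
Mean level of each of the 44 members over 18 libraries (CPM, log axis) against the share of its coding bases that lie in another gene on the same strand (percent). The 5 members above 50% lie between 0.883 and 24.9 CPM, and the others lie between 12.5 and 343 CPM.

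The summed level of the 44 members was highest with RES. It was 4776 ± 325 CPM in Con, 4987 ± 169 in Model, 4957 ± 137, 5129 ± 21.5 and 4938 ± 168 at 0.5, 1 and 2 μM FUCO, and 5697 ± 73.8 CPM in RES (SD, n = 3 each). The RES libraries held 5612, 5743 and 5735 CPM, all above the highest of the 15 other libraries, a Model library at 5182 CPM. As a share of all counts, with no scaling, the members took 0.479 to 0.504% of the library in Model and 0.602 to 0.618% in RES. Each of the 4 classes had its highest mean with RES. The cap summed to 2565 ± 97.9 CPM in Model and 2969 ± 43.9 CPM in RES, and the core to 1728 ± 50.3 and 1932 ± 46.3 CPM. The activators and inhibitor summed to 565 ± 17.7 and 647 ± 13.2 CPM, and the assembly factors to 129 ± 4.43 and 148 ± 1.28 CPM. These sums are descriptions and carry no test, and in bulk libraries a change in every cell and a change in some cells cannot be told apart.

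**Figure D2:**
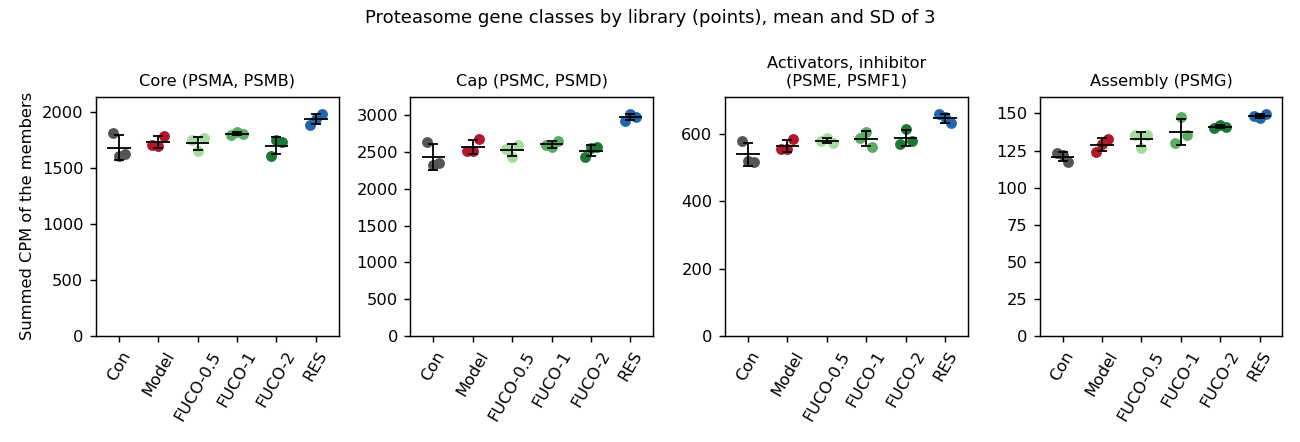
Summed CPM of the core, cap, activator and assembly members in each library (points), with the mean and SD of 3 libraries per group. In the core, the cap and the activators the 3 RES libraries lie above the 15 others, and Con replicate 1 lies above the other 2 Con libraries in the core, the cap and the activators.

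Across all 6 groups together, 25 of the 44 members differed at an adjusted p under 0.05 (edgeR quasi-likelihood F-test, Benjamini-Hochberg over all tested genes), where 67% of the tested genes did. All 3 RES libraries lay above the 15 others for 20 of the 44 members (13 cap, 5 core, 1 activator and 1 assembly gene), against 16.8% of the tested genes, and below them for 0 members, against 17.3%. RES had the highest group mean for 33 members and Con the lowest for 21, counts that were not taken over all tested genes and so have no background here.

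**Figure D3:**
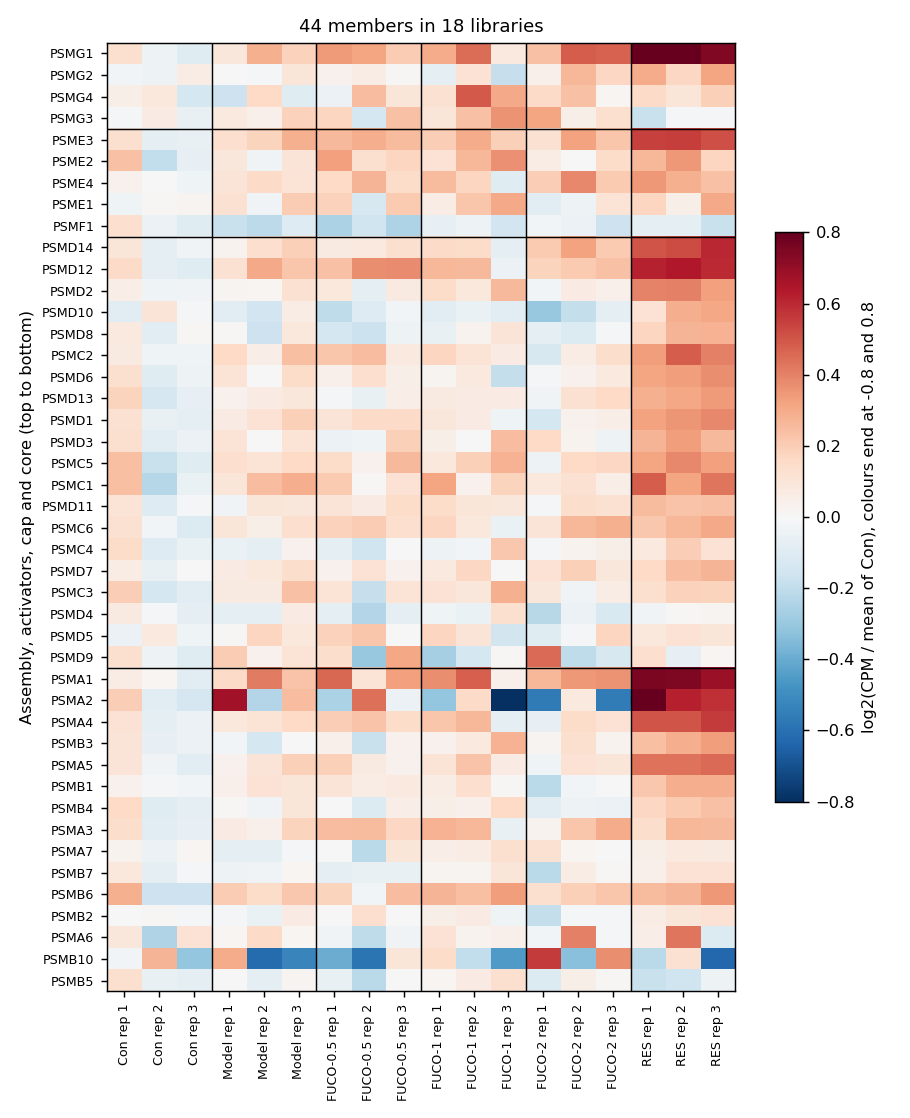
Level of each of the 44 members (vertical) in each of the 18 libraries (horizontal) as log2 of CPM over the mean of Con, with colours ending at -0.8 and 0.8. The 3 RES columns are red for most members, with PSMB5, PSMF1 and PSMG3 among the exceptions.

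RES was compared with Model to ask what Resmetirom did to these genes in FFA-treated cells. Of the 44 members 20 rose and 0 fell, where 24.4% of the tested genes rose and 25.1% fell (edgeR quasi-likelihood test, adjusted p under 0.05). Differences between groups are given throughout as log2 fold changes with their standard error (SE). The median of the members was 0.18 on the log2 scale, a 1.14-fold level, against 0.0023 over all tested genes, and 41 of the 44 had a positive difference. The rise was small for each gene: none passed the study's added limit of an absolute log2 fold change over 1, which 3% of the tested genes passed upward. Since the members are mostly abundant, the 9638 tested genes with a mean of at least 10 CPM are a closer background, and of these 27.7% rose and 26.7% fell.

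The 5 members with the largest rise were an assembly factor, α ring subunits and lid subunits of the cap. PSMG1 (PAC1, chr21:39174769-39183514 in GRCh38.p14), which pairs with PSMG2 as a chaperone of the α ring, was measured at 31.1, 35.6 and 33.3 CPM in the Model libraries and 53.8, 51.0 and 48.8 CPM in the RES libraries. The RES values lay above all others, including 32.0, 28.4 and 27.3 CPM in Con. The difference was 0.62 (SE 0.093, adjusted p = 5.95e-06), a 1.54-fold level.

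PSMA1 (α6, chr11:14504876-14643662) had 21.9, 26.3 and 23.0 CPM in Model and 33.2, 33.1 and 31.8 CPM in RES, a difference of 0.46 (SE 0.10, adjusted p = 5.58e-04). Its counts carry the shared coding bases described above. PSMA4 (α3, chr15:78540405-78552417) had 156, 158 and 164 CPM in Model and 208, 208 and 216 CPM in RES, a difference of 0.40 (SE 0.080, adjusted p = 1.89e-04). In both genes the groups did not overlap.

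PSMD14 (Rpn11, chr2:161308425-161411717), the cap's deubiquitinase, had 105, 113 and 118 CPM in Model and 146, 148 and 157 CPM in RES, and differed by 0.43 (SE 0.073, adjusted p = 3.08e-05). PSMD12 (Rpn5, chr17:67337916-67366577), a lid subunit, had 74.8, 84.8 and 80.2 CPM in Model and 106, 107 and 104 CPM in RES, and differed by 0.40 (SE 0.083, adjusted p = 2.67e-04). For PSMD14 and PSMD12 too the lowest RES library exceeded every other library.

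**Figure D4:**
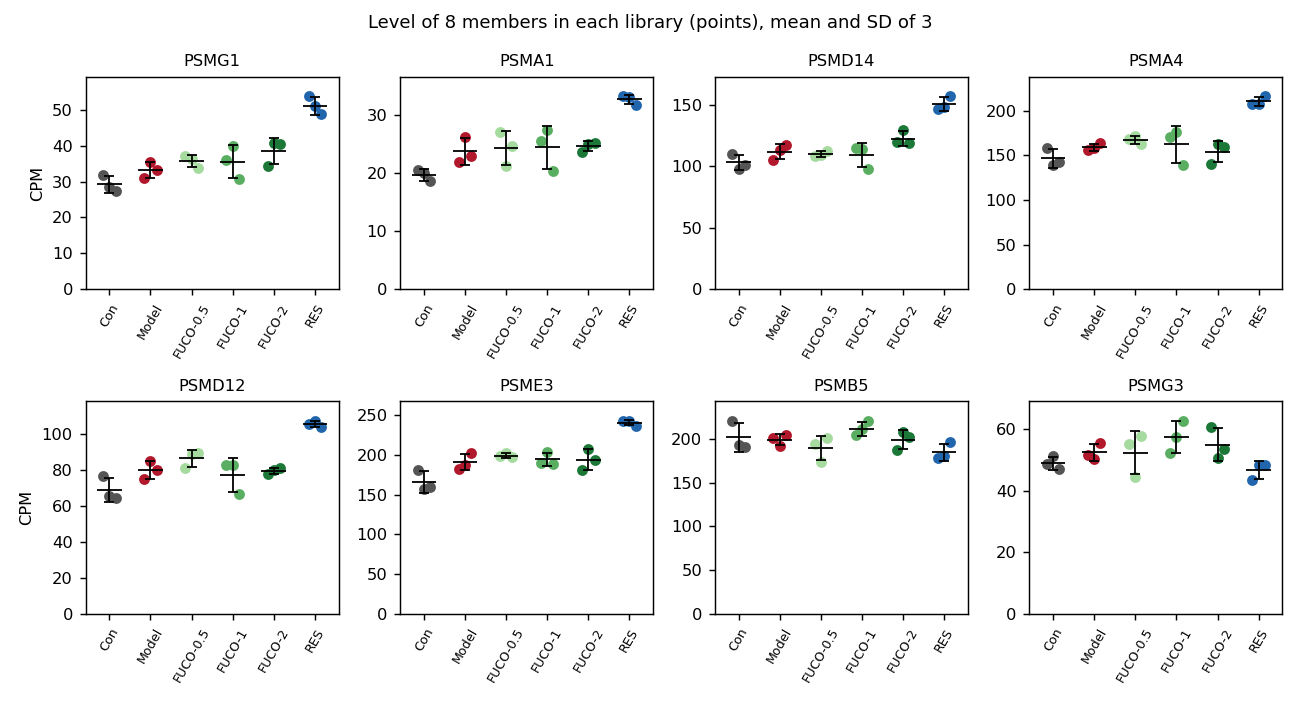
CPM of 8 members in each library (points), with the mean and SD of 3 libraries per group and axes from 0. PSMG1, PSMA1, PSMD14, PSMA4, PSMD12 and PSME3 are highest in the 3 RES libraries, whereas PSMB5 and PSMG3 have their lowest group mean in RES.

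Within the core, 6 of 15 members rose with RES: 3 of 7 α genes (PSMA1, PSMA4 and PSMA5) and 3 of 8 β genes (PSMB1, PSMB3 and PSMB4). PSMA5 (α5) differed by 0.33 (SE 0.072, adjusted p = 5.16e-04) and PSMB3 (β3) by 0.34 (SE 0.079, adjusted p = 8.95e-04). The other β genes that rose, PSMB1 and PSMB4, did so by 0.18 and 0.17, and PSMB4 lay at the limit (adjusted p = 0.0477). None of the subunits that carry the proteolytic sites passed the test. PSMB5 had 202, 192 and 205 CPM in Model and 179, 181 and 197 CPM in RES, a difference of -0.11 (SE 0.074, adjusted p = 0.237), and so went against the direction of most core genes. PSMB6 differed by 0.10 (SE 0.091, adjusted p = 0.369) and PSMB7 by 0.11 (SE 0.070, adjusted p = 0.209). This depended on the scaling of libraries. In the edgeR fit without TMM, PSMB6 and PSMB7 passed, at 0.236 (adjusted p = 0.0373) and 0.241 (adjusted p = 0.00551). PSMB5 did not pass there, at 0.026 (adjusted p = 0.792). The immunoproteasome subunit PSMB10, with 11 to 21 counts per library in these groups, differed by 0.00033 (SE 0.36), and its relatives PSMB8 and PSMB9 stayed at 0 to 2 counts. PSMA2 had a difference of 0.43 that rested on 30 to 89 counts per library and did not pass (SE 0.24, adjusted p = 0.152).

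Within the cap, 11 of 20 members rose, of which 10 were among the 14 non-ATPases and 1 among the 6 ATPases. PSMD2 (Rpn1), the scaffold that docks shuttle proteins, had 321, 320.1 and 345 CPM in Model and 417, 418 and 397 CPM in RES, a difference of 0.32 (SE 0.067, adjusted p = 3.10e-04). PSMD1 (Rpn2), PSMD3, PSMD6, PSMD8, PSMD11, PSMD13 and the base chaperone PSMD10 (gankyrin) rose by 0.19 to 0.30. The ATPase that passed was PSMC2 (Rpt1), at 0.26 (SE 0.076, adjusted p = 0.00664). The other 5 ATPases were positive as well, from 0.03 (PSMC3) to 0.21 (PSMC5, adjusted p = 0.0547). The share of ATPases and non-ATPases that passed was not tested for a difference. The ubiquitin receptor PSMD4 (Rpn10) differed by 0.03 and the base chaperones PSMD5 and PSMD9 by 0.0085 and -0.08, none past the test.

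Among the activators, PSME3 rose and the other 4 members did not pass. PSME3 (chr17:42833397-42843760) had 182, 188 and 202 CPM in Model and 243, 243 and 237 CPM in RES, with no overlap, a difference of 0.34 (SE 0.070, adjusted p = 3.12e-04). The PA28αβ genes PSME1 and PSME2 differed by 0.08 (SE 0.092, adjusted p = 0.523) and 0.21 (SE 0.094, adjusted p = 0.0667). PSME4 differed by 0.17 (SE 0.078, adjusted p = 0.0781) and PSMF1 by 0.05 (SE 0.070, adjusted p = 0.562). In the fit of RES and Model alone PSME2 and PSME4 passed, with adjusted p of 0.00576 and 0.00428. In the assembly class PSMG1 and its partner PSMG2 rose, the latter by 0.24 (SE 0.083, adjusted p = 0.0215). The second chaperone pair had opposite signs and did not pass the test. PSMG3 differed by -0.17 (SE 0.094, adjusted p = 0.147), with 51.7, 50.3 and 55.6 CPM in Model and 43.4, 48.6 and 48.6 CPM in RES, and PSMG4 by 0.18 (SE 0.12, adjusted p = 0.215).

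**Figure D5:**
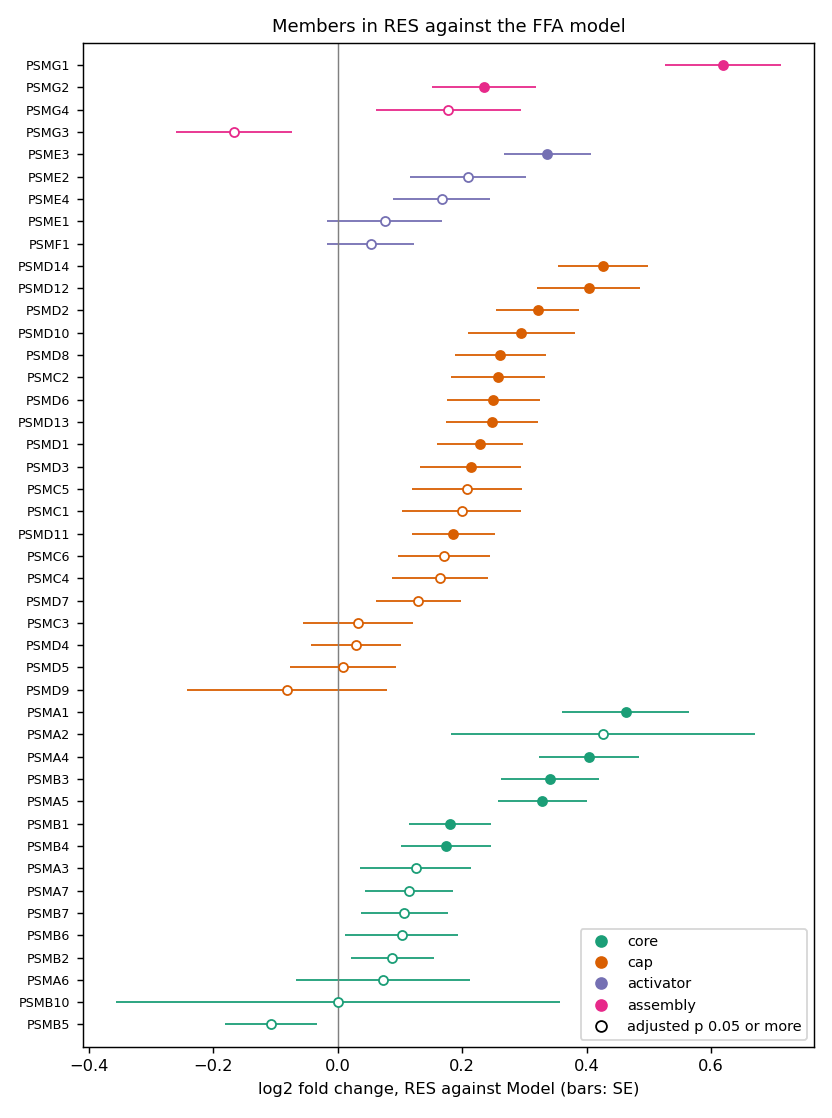
Log2 fold change of each member in RES against Model with its standard error, by class and ordered within it, with filled points for an adjusted p under 0.05. The 20 filled points all lie above 0, from PSMB4 at 0.17 to PSMG1 at 0.62, and the 3 points below 0 (PSMG3, PSMB5 and PSMD9) are open.

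The scaling of libraries moved this count. TMM factors were 1.071 to 1.078 in RES and 0.973 to 0.983 in Model, and with library totals alone 34 members rose and 0 fell. In that fit 5315 of the 14557 tested genes rose and 2668 fell. The median of all tested genes then stood at 0.14 and the members' median at 0.32. A change of scaling moves all genes by nearly the same amount. The gap of 0.18 between these medians therefore had to stay, and it is no test of the scaling. The share of all called genes that were higher went from 49.3% to 66.6%. Without the 5 members with mostly shared coding bases, 19 of 39 rose.

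The members that rose together were read for a known promoter motif. NFE2L1 binds antioxidant response elements, whose core was searched as TGACNNNGC on both strands in the window from 250 bases before to 50 after each start in RefSeq (GRCh38.p14). Some genes have several annotated starts and so several windows, and a gene was counted if any of its windows held the motif. A window was at hand for 38 of the 44 members, and 14 of these (36.8%) held the motif, against 16.1% of 27305 genes with a window. By window, 14 of the 46 windows of members (30.4%) held it, against 13.3% of all 35116 windows. It was found in 7 of the 19 members with a window that rose with RES and in 7 of the 19 that did not pass, so its presence did not separate them. Of the members that rose, 5 held it before the whole span of the gene in RefSeq. These stretches are shown with the motif in capitals, 5′ to 3′ on the strand of the gene.
PSMB3: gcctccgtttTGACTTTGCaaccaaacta
PSMD12: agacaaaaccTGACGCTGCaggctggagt
PSMD3: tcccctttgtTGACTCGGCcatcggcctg
PSMG1: gcccagggcaTGACAGCGCgggcgggcgg
PSMG2: cagtttcccgTGACCCCGCggccgctctg
The stretches lie at chr17:38752627-38752655 (plus strand, PSMB3), chr17:67366724-67366752 (minus, PSMD12), chr17:39980760-39980788 (plus, PSMD3), chr21:39183616-39183644 (minus, PSMG1) and chr18:12658689-12658717 (plus, PSMG2). Their first motif base is 104, 165, 37, 120 and 39 bases before the outermost RefSeq start of the gene, in the same order. In GENCODE v44 PSMG2 starts further out, at chr18:12658043, so its stretch lies inside that span. The match of PSMA4 lay before a later start, inside the span of the gene, and is not shown. A match of letters is a description and shows no binding.

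Model was compared with Con to ask what FFA alone did. Only PSME3 passed the test: 1 of 44 members rose and 0 fell, where 8.43% of the tested genes rose and 9.12% fell. PSME3 had 182, 157 and 159 CPM in Con and 182, 188 and 202 CPM in Model, and the groups nearly met at 182 CPM without overlap. The difference was 0.20 (SE 0.071, adjusted p = 0.0497) by the edgeR quasi-likelihood test, at the limit of the threshold. This call was lost in 18 of 25 alternative fits, with an adjusted p of up to 0.218 for PSME3, among them the fit of these groups alone and 14 of the 18 fits that left out 1 library. The members' median was 0.09, with 33 of 44 positive, against 0.0011 over all tested genes. An unadjusted p under 0.05 was found for 5 of the 44 members, where 4402 of the 14557 tested genes had one. Without Con replicate 1, the library that stood apart, 5 members rose (PSMB6, PSMC1, PSMC5, PSMD12 and PSME3). The share of all tested genes that rose in that fit was not taken, so this count has no background here.

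The subunits with proteolytic sites had differences of -0.02 (PSMB5), 0.19 (PSMB6) and -0.02 (PSMB7) between Model and Con. For PSMB6 the Con libraries held 141, 103 and 103 CPM and the Model libraries 133, 128 and 134 CPM, so that Con replicate 1 alone lay above Model. PSMB10 differed by -0.21 with an SE of 0.33. Among the regulators PSME1, PSME2 and PSME4 differed by 0.10, 0.05 and 0.12, and PSMF1 by -0.16 (SE 0.070, adjusted p = 0.115), with 168, 148 and 143 CPM in Con and 135, 132 and 142 CPM in Model. PSMF1 thus went against the direction of its class, with every Model library below every Con library. The assembly factors PSMG1, PSMG2, PSMG3 and PSMG4 differed by 0.19, 0.03, 0.10 and -0.03, none past the test.

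Fucoxanthin was compared with Model at each dose, and no member passed the test at any dose. At 0.5 μM 0 members rose and 0 fell (0.289% and 1.16% of the tested genes), at 1 μM 0 and 0 (0.893% and 2.32%), and at 2 μM 0 and 0 (10.8% and 9.71%). At an unadjusted p under 0.05 there were 0, 4 and 3 of the 44 members, where 1641, 2375 and 4806 of the 14557 tested genes lay under it. DESeq2 called 0, 0 and 1 members (PSMB1, lower, at 2 μM). The medians were -0.0081, 0.03 and -0.0077 on the log2 scale. A p that misses the threshold does not show that a level stayed the same. Outside the low-count genes PSMA2 and PSMB10, the differences at 2 μM ran from -0.16 (PSMB1, SE 0.066) to 0.21 (PSMG1, SE 0.095).

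The regulators were followed dose by dose. The catalytic genes differed from Model, at 0.5, 1 and 2 μM, by -0.07, 0.09 and -0.00055 (PSMB5), -0.05, 0.09 and -0.0081 (PSMB6) and -0.05, 0.07 and -0.03 (PSMB7). PSMB10 differed by -0.05, 0.09 and 0.46, with an SE of 0.32 at 2 μM. The activator genes PSME1 and PSME2 differed by -0.0050, 0.10 and -0.10 and by 0.16, 0.20 and 0.01. None of these genes rose or fell at any dose by the test. PSME3 differed by 0.06, 0.03 and 0.02, PSME4 by 0.07, -0.0048 and 0.14 and PSMF1 by -0.05, 0.08 and 0.09.

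The assembly factors had the highest class median at 2 μM, 0.15, and all 4 were positive there. PSMG1 had 37.0, 36.4 and 33.7 CPM at 0.5 μM, 36.0, 39.9 and 30.8 CPM at 1 μM and 34.3, 40.8 and 40.6 CPM at 2 μM, and differed from Model by 0.10, 0.09 and 0.21 (adjusted p at 2 μM = 0.118). The FUCO-2 libraries overlapped the Model libraries. PSMG2 differed by 0.0085, -0.07 and 0.13, PSMG3 by -0.0041, 0.13 and 0.07 and PSMG4 by 0.13, 0.34 and 0.17. PSMG4 at 1 μM had the lowest unadjusted p of the members in the FUCO comparisons (0.0076, adjusted p = 0.116). Without FUCO-2 replicate 1, which differed most from its group, 1 member (PSMG1) rose at 2 μM. The share of all tested genes that rose in that fit was not taken.

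Between the doses of 2 and 1 μM, 0 members rose and 0 fell, where 4.07% and 2.23% of the tested genes did. An unadjusted p under 0.05 was found for 4 of the 44 members, where 2951 of the 14557 tested genes had one. The median was -0.06. The PA28αβ genes had the lowest values, -0.20 (PSME1, SE 0.093) and -0.18 (PSME2, SE 0.094). PSMB5, PSMB6 and PSMB7 differed by -0.09, -0.10 and -0.09, PSMB10 by 0.37, PSME3, PSME4 and PSMF1 by -0.0054, 0.15 and 0.01, and PSMG1 to PSMG4 by 0.12, 0.21, -0.07 and -0.17. All comparisons with Model share its 3 libraries, and whether the effect of RES on the members differed from that of FUCO was not tested.

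RES was also set against Con, a comparison added after the RES values had been seen. Of the 44 members 29 rose and 0 fell, where 28.8% and 28.5% of the tested genes did, and the median was 0.26. PSMG1 again had the largest value, 0.81 (SE 0.094, adjusted p = 8.68e-08), from 32.0, 28.4 and 27.3 CPM in Con to 53.8, 51.0 and 48.8 CPM in RES. PSMA1, PSMA2, PSMD12 and PSMD14 followed at 0.73, 0.70, 0.62 and 0.55. The activators PSME2, PSME3 and PSME4 rose by 0.26, 0.54 and 0.29, while PSME1 (0.18) and PSMF1 (-0.11) did not pass. Of the catalytic genes PSMB6 rose, by 0.29 (SE 0.091, adjusted p = 0.00880), and PSMB5 (-0.12), PSMB7 (0.09) and PSMB10 (-0.21) did not pass. PSMG2 rose by 0.26, and PSMG3 (-0.07) and PSMG4 (0.15) did not pass.

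Proteasome genes outside the symbol rule were read as a list of 12 partners. With RES 6 of the 12 rose and 1 fell against Model, where 24.4% and 25.1% of the tested genes did. UCHL5 (UCH37), a deubiquitinase of the cap, had 51.8, 50.5 and 49.6 CPM in Model and 85.9, 90.2 and 85.1 CPM in RES, a difference of 0.78 (SE 0.072, adjusted p = 2.47e-09), above that of any member. PAAF1, a chaperone of the ATPases, and ECPAS (ECM29), an adaptor of the assembled proteasome, rose by 0.67 (SE 0.099, adjusted p = 4.86e-06) and 0.53 (SE 0.079, adjusted p = 6.07e-06). POMP, which helps the β ring form, rose by 0.27, the deubiquitinase USP14 and the ubiquitin ligase UBE3C by 0.19 and 0.18, and the import receptor IPO9 fell by 0.19. At 2 μM FUCO 2 of the 12 rose against Model (10.8% of the tested genes), PAAF1 by 0.47 (SE 0.10, adjusted p = 0.00194) and ECPAS by 0.33 (SE 0.079, adjusted p = 0.00492). Against 1 μM 2 of the 12 rose (4.07% of the tested genes), ECPAS by 0.28 and the ubiquitin-binding ZFAND5 by 0.33. PAAF1 fell by 0.38 in Model against Con, the only partner that passed there. At 0.5 and 1 μM 0 of the 12 passed.

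The NFE2L1 axis held 9 genes, of which 6 rose and 1 fell with RES, where 24.4% and 25.1% of the tested genes did. NFE2L1 had 343, 336 and 341 CPM in Model and 420.5, 457 and 446 CPM in RES, a difference of 0.38 (SE 0.069, adjusted p = 7.45e-05). OGT, which glycosylates proteins in the nucleus and cytosol, and NGLY1, which removes sugars from NFE2L1, rose by 0.71 (SE 0.085, adjusted p = 2.15e-07) and 0.59 (SE 0.089, adjusted p = 6.26e-06). SEL1L, NFE2L2 and SYVN1 rose by 0.50, 0.50 and 0.30, and HCFC1 fell by 0.28. At 2 μM FUCO 1 rose (KEAP1, 0.29) and 2 fell (SYVN1, -0.27, and SEL1L, -0.25), where 10.8% and 9.71% of the tested genes did. At 1 μM SEL1L fell by 0.31, and 0 of 9 passed at 0.5 μM or in Model against Con. Between 2 and 1 μM FUCO 2 of the 9 rose and 0 fell, where 4.07% and 2.23% of the tested genes did.

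Genes of p97 and the ubiquitin shuttles, which bring proteins to the proteasome, were read as a list of 12. At 2 μM FUCO 3 rose and 3 fell, where 10.8% and 9.71% of the tested genes did, and with RES 5 rose and 2 fell, where 24.4% and 25.1% of the tested genes did. SQSTM1 (p62), the autophagy receptor for ubiquitinated proteins, had 144, 161 and 146 CPM in Model, 313, 326 and 228 CPM at 2 μM FUCO and 331, 328 and 288 CPM with RES. It rose by 0.94 (SE 0.12, adjusted p = 7.69e-06) at 2 μM FUCO and by 1.07 (SE 0.12, adjusted p = 1.12e-07) with RES. FAF1 rose by 0.37 and UFD1, a p97 adaptor, fell by 0.42 at 2 μM FUCO. With RES FAF1 rose by 0.60 and NPLOC4 fell by 0.37. In Model against Con 2 rose and 2 fell, where 8.43% and 9.12% of the tested genes did, with UBQLN1 at -0.26 and FAF2 at 0.24 among them. Of 6 ubiquitin and E1 genes, 0 rose and 2 fell at 2 μM FUCO (10.8% and 9.71% of the tested genes), among them UBB by 0.39. With RES 1 rose and 1 fell (24.4% and 25.1% of the tested genes), the latter being the E1 enzyme UBA1, by 0.18.

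Class I presentation, which uses peptides cut by the proteasome, was read as 11 tested genes. In Model against Con 4 rose and 0 fell, where 8.43% and 9.12% of the tested genes did, with HLA-B and HLA-E at 1.19 and 0.52 among them. With RES against Model 4 rose and 1 fell, where 24.4% and 25.1% of the tested genes did. IRF1, a transcription factor of immunoproteasome genes, rose by 1.28 (SE 0.15, adjusted p = 1.52e-07), from 4.72, 4.56 and 4.77 CPM to 12.0, 11.9 and 10.4 CPM, and TAPBP rose by 0.52. PSMB9 had 2, 2 and 1 counts in the RES libraries and PSMB8 had 0 in each, both under the floor of 3 counts. At the 3 FUCO doses 0 of the 11 genes passed against Model.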

How the data were processed

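The authors sequenced polyadenylated RNA, mapped it with STAR against GRCh38.p14, and deposited unnormalized featureCounts counts under gene symbols. Strand, multiple matches and shared exons in this counting are not given in the sources used here. All 18 columns of the deposited table were used; their names were matched to the libraries through the labels' library names. In R 4.3.3 with edgeR 4.0.16, genes passed filterByExpr (minimum count 10, minimum total 15), were scaled by TMM and were fitted over all 18 libraries with 1 term per group (quasi-likelihood, two-sided, prior count 0.125). P-values were Benjamini-Hochberg adjusted over 14557 genes, with a call at 0.05. DESeq2, the tool the study names, was run here in version 1.42.0 as an alternative, beside RLE factors, fits of 2 groups, other filters, a replicate block and leave-one-out. Library totals without TMM, RES against Con and the removal of 5 overlapping members were added after the data were seen. The fit was also run on simulated counts in which few genes changed, and only in RES. Far more genes were called in these data, so no result here rests on that run. Replicates of a group differed by more than sampling noise (chi-square per degree of freedom 2.29 to 19.2). The members and gene lists were chosen with earlier results of these data known. Genes named singly were, in each comparison, the 5 called members with the largest rise and fall, the catalytic, immunoproteasome, activator and assembly genes, members against the direction of their class, and up to 3 called genes of each list; further names were chosen after their values were seen, and some genes of the lists are not reported here. Overlaps were read from GENCODE v44 and promoters from RefSeq. Counting depth limits PSMB10 and PSMA2 most. The floor of 3 counts reflects counting error alone, as molecules were not tagged.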

Additional observations from a re-analysis of the deposited data

How the results depend on the processing

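The rise of members with RES against Model (20) stayed within 1.5 times of that count in every alternative except library totals without TMM (34) and the study's added fold limit (0), and 14 of the 20 members passed in all 25 other fits, whereas PSMB4 passed in 10. Leaving out each library gave 15 to 24. The fit of these groups alone called 27 higher, among them the 20, with PSME2 and PSME4 added, and 1 lower (PSMG3). The share of all genes called was not taken in fits of 2 groups, with the replicate block or with a library left out. Member counts from those fits have no background here. For Model against Con the 1 member (PSME3) was lost, leaving 0, in the fit of 2 groups, with RLE factors, without the low-count filter, with the fold limit and with the replicate block, and 3 rose without TMM (PSMA1, PSMD12 and PSME3). Leaving out each library gave 0 to 5, with 5 without Con replicate 1, 3 without FUCO-1 replicate 3 and 0 in 14 others, and the adjusted p of PSME3 reached 0.218. At 2 μM FUCO 1 member rose without TMM (PSMG1), 0 to 1 rose when each library was left out, and DESeq2 called 1 lower (PSMB1). RES against Con gave 0 with the fold limit and 23 to 30 when each library was left out, and the test over 6 groups gave 17 to 28.

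Signs turned only in differences near 0 that passed no test. Without TMM, PSMB5, PSMB7 and PSMG4 in Model against Con became 0.042, 0.042 and 0.033, and PSMB5 in RES against Model became 0.026. PSMB10 in RES against Model became -0.0016 in the fit of 2 groups, -0.0028 with RLE factors, -0.0066 with 10 or more counts in every library and -0.0021 with the replicate block, and ran from -0.17 to 0.35 when each library was left out. In Model against Con, leaving out each library gave -0.057 to 0.052 for PSMB5, -0.054 to 0.024 for PSMB7, -0.037 to 0.18 for PSME2, -0.0078 to 0.057 for PSMG2 and -0.13 to 0.038 for PSMG4. The cause was not tested in any of these.

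The replicate numbers of the labels were not shown to pair libraries: of 45 same-numbered pairs, 7 had a correlation of deviations over 0.1 (range -0.20 to 0.19), and 10 of 18 libraries correlated best with their own number. With the replicate block 20 members rose with RES against Model, the same genes, 29 with RES against Con, 0 in Model against Con and with FUCO, and 26 differed among the 6 groups. Without TMM the share of called genes that were higher went from 48.0% to 66.6% in Model against Con, from 52.7% to 67.8% at 2 μM FUCO against Model and from 50.2% to 69.4% in RES against Con. In these comparisons without TMM, 1816, 2165 and 6372 of the 14557 tested genes rose, in the same order.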
